A study of Sus scrofa domesticus with 8 samples.

Results

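Of 10707 genes named on the array, 5 are described here: NR5A1, NR5A2, GATA6 and WT1, which encode transcription factors of the granulosa cell, and ESR1, which encodes estrogen receptor alpha. They were taken by gene symbol from the platform annotation, which gave them 10 of the 27558 features of the array. NR5A2 and GATA6 had 1 feature each, NR5A1 and WT1 had 2 each, and ESR1 had 4. Each gene is given by its highest-mean feature over the 8 arrays, with the other features beside it. The samples were porcine granulosa cells, the somatic cells that surround the oocyte and line the follicle. The cells came from 43 Landrace crossbred gilts of a median 170 days and 98 kg and were kept at 37 °C in DMEM with 2% fetal bovine serum. There were 4 groups of 2 arrays, taken at 0 h (before culture), 48 h, 96 h and 144 h. The labels name no hormone treatment, genotype or control culture, and do not say from which animals or dishes the arrays of a group came. Where both came from 1 pool, their spread would be technical, and the p-values measure no more than that spread.

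NR5A1 (steroidogenic factor 1) and NR5A2 (liver receptor homolog 1) are closely related orphan nuclear receptors. Both bind the same short DNA element as monomers and switch on genes of steroid synthesis and gonadotropin response. In mice, NR5A2 in granulosa cells is needed for ovulation and luteinization. GATA6 is a zinc finger factor that acts with GATA4 on many of the same promoters, and WT1 is a zinc finger factor of the early gonad that is known in rodents for high levels in granulosa cells of small follicles. ESR1 is 1 of the 2 nuclear receptors for estradiol, which granulosa cells make, and ESR2 is the other.

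All values are log2 intensities from robust multi-array averaging (RMA), so a difference of 1 is 2-fold. Array medians were 4.52 to 4.63, and lower quartiles 3.13 to 3.25. Arrays of the same group correlated across features at 0.985 (144 h) to 0.997 (96 h). Between time means, 48 h and 144 h were most alike (0.981) and 0 h and 96 h least alike (0.903). The 96 h mean was less like that of 48 h (0.957) or 144 h (0.97) than these were like each other. Leaving the 96 h arrays out of the fit, a choice made after seeing the data, left every call of the 5 genes between 0 h, 48 h and 144 h as it was. None of the 10 features lay below the lower quartile on any array. Since levels of different probes depend on the probes, levels are compared here within a gene only.

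Of the 5 genes, NR5A1, NR5A2, GATA6 and ESR1 were lower at 48 h, 96 h and 144 h than at 0 h, and WT1 was higher at each of these times. At 48 h, 4 of 5 genes were called lower and 1 higher at an adjusted p below 0.05, where 15.8% of the 10707 named genes were lower and 18.1% higher. At 96 h the counts against 0 h were again 4 and 1, beside 23.4% of named genes lower and 21.5% higher. At 144 h they were 4 and 1, beside 17.6% lower and 19.2% higher. These 3 comparisons share the 0 h arrays. The 5 genes were chosen with earlier results of these data known, so setting them beside all named genes is a description and not a test. The median difference of the 5 genes was -0.79 at 48 h, -1.81 at 96 h and -1.46 at 144 h, while that of all named genes was -0.036, -0.012 and -0.031. Over the 4 times together, limma's F test called all 5, with adjusted p from 2.67e-06 for ESR1 to 0.00163 for WT1, where 51.8% of named genes were called.

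**Figure D1:**
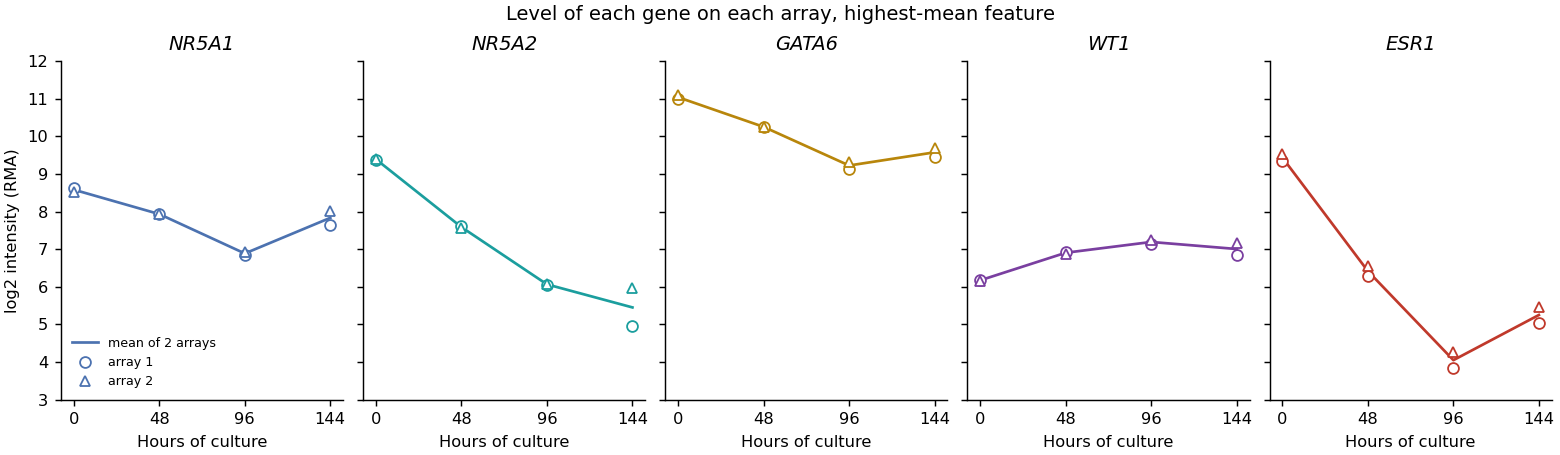
Log2 intensity (vertical axis) against hours of culture for the 5 genes, with a circle and a triangle for the 2 arrays of a time and a line through their means. ESR1 fell to a mean of 4.05 at 96 h, against 9.43 at 0 h, NR5A2 was lowest at 144 h, and WT1 was higher at each later time than at 0 h; heights of different genes are not comparable.

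Among the nuclear receptors of the NR5A family, NR5A1 had levels of 8.63 and 8.53 at 0 h, 7.94 and 7.93 at 48 h, 6.84 and 6.94 at 96 h, and 7.64 and 8.02 at 144 h. Both 0 h arrays lay above all 6 later arrays, and both 96 h arrays below all others. It fell by 0.65 ± 0.14 at 48 h (SE, n = 2 per time, adjusted p = 0.01), which is 1.57-fold lower than at 0 h. It was 3.24-fold lower at 96 h than at 0 h, with a difference of -1.69 ± 0.14 (adjusted p = 3.59e-05), and 1.68-fold lower at 144 h, with -0.75 ± 0.14 (adjusted p = 0.00441). From highest to lowest, its order was 0 h, 48 h, 144 h and 96 h, and the neighbours 144 h and 48 h did not differ beyond their spread (-0.10, 95% confidence interval -0.43 to 0.23). The call at 48 h was lost without 0 h replicate 1 (adjusted p = 0.0647) or 48 h replicate 1 (0.0519).

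The second feature of NR5A1, 15198890, read 7.52 and 7.72 at 0 h, 6.87 and 6.89 at 48 h, 6.61 and 6.62 at 96 h, and 6.40 and 6.54 at 144 h. By it, the gene was also lower at every later time than at 0 h, with differences of -0.74, -0.999 and -1.14 at 48 h, 96 h and 144 h. The first feature, 15198918, was 0.95 ± 0.14 higher at 144 h than at 96 h (adjusted p = 0.00276), whereas the second differed by -0.14 ± 0.12 (adjusted p = 0.437). Whether the features differ from each other was not tested, and the fall below the 0 h level is the pattern that both show.

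NR5A2 had levels of 9.37 and 9.41 at 0 h, 7.62 and 7.55 at 48 h, 6.06 and 6.07 at 96 h, and 4.95 and 5.96 at 144 h. No array overlapped with those of another time. The 144 h arrays lay 1.01 apart, wider than any other pair of this gene. NR5A2 fell, with differences from 0 h of -1.80 ± 0.27 at 48 h (adjusted p = 0.0016), -3.32 ± 0.27 at 96 h (adjusted p = 3.17e-05) and -3.94 ± 0.27 at 144 h (adjusted p = 1.72e-05). The last of these is 15.3-fold lower than at 0 h, and only 96 of the 10707 named genes differed by more between these times. Its order was 0 h, 48 h, 96 h and 144 h, and the neighbours 144 h and 96 h were not called different (-0.61, interval -1.24 to 0.02, adjusted p = 0.156). Without 144 h replicate 2 this last difference was -1.12 and called (adjusted p = 0.000848), and without 144 h replicate 1 it was -0.11.

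By the first feature of NR5A1 and the only feature of NR5A2, the 2 genes did not follow the same course. An exact permutation test took the difference between the genes on each array and compared the 4 times with every other way to split the 8 arrays into 4 pairs. By it the course of NR5A2 differed from that of NR5A1 (exact p = 0.00952, the smallest that these splits allow, and adjusted p = 0.0119 over 10 pairs of genes). The change of NR5A1 exceeded that of NR5A2 by 1.15 at 48 h, 1.63 at 96 h and 3.19 at 144 h on the log2 scale, so that the feature of NR5A2 lost more signal at each time. The test cannot tell a difference in probe response from one in expression.

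GATA6, the zinc finger factor, had levels of 10.98 and 11.10 at 0 h, 10.25 and 10.25 at 48 h, 9.13 and 9.32 at 96 h, and 9.45 and 9.70 at 144 h. The 4 pairs of arrays did not overlap. It fell, with differences from 0 h of -0.79 ± 0.13 at 48 h (adjusted p = 0.00251), -1.81 ± 0.13 at 96 h (adjusted p = 1.53e-05) and -1.46 ± 0.13 at 144 h (adjusted p = 6.72e-05), which is 2.76-fold lower at 144 h than at 0 h. Its order was 0 h, 48 h, 144 h and 96 h, the order of the first feature of NR5A1. The neighbours 144 h and 96 h were not called different (0.35, interval 0.05 to 0.65, adjusted p = 0.0953), although they were without 144 h replicate 1 (0.48, adjusted p = 0.035). GATA6 differed by -0.68 ± 0.13 at 144 h against 48 h (adjusted p = 0.0159), a call that was lost without 48 h replicate 1 (adjusted p = 0.0917) or 48 h replicate 2 (0.0851).

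WT1, the other zinc finger factor, went the other way. It had levels of 6.19 and 6.16 at 0 h, 6.94 and 6.88 at 48 h, 7.13 and 7.25 at 96 h, and 6.84 and 7.17 at 144 h. Both 0 h arrays lay below all 6 later arrays, and the 144 h arrays overlapped with those of 48 h and 96 h. It rose by 0.73 ± 0.14 at 48 h (adjusted p = 0.00443), 1.02 ± 0.14 at 96 h (adjusted p = 0.000456) and 0.83 ± 0.14 at 144 h (adjusted p = 0.00198). These are 1.66-fold, 2.03-fold and 1.78-fold higher levels than at 0 h. No difference among the 3 later times was called, and the largest, 0.29 for 96 h against 48 h, had an interval of -0.03 to 0.60. The second feature, 15262578, also rose at the 3 times, by 0.61, 0.71 and 0.84.

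ESR1 had levels of 9.35 and 9.52 at 0 h, 6.28 and 6.56 at 48 h, 3.83 and 4.27 at 96 h, and 5.03 and 5.47 at 144 h. The 4 pairs of arrays did not overlap. It fell by 3.02 ± 0.20 at 48 h (adjusted p = 2.17e-05), to 8.09-fold below the 0 h level. Its difference from 0 h was -5.38 ± 0.20 at 96 h (adjusted p = 7.04e-07). At 144 h it was -4.18 ± 0.20 (adjusted p = 2.71e-06). No detection call was used, and the 96 h arrays lay closest to the lower quartile, so that the size of the 96 h difference is uncertain and no fold or rank is given for it. Its order was 0 h, 48 h, 144 h and 96 h, and every neighbour in this order was called different, where 144 h differed from 48 h by -1.17 ± 0.20 (adjusted p = 0.0105) and from 96 h by 1.20 ± 0.20 (adjusted p = 0.00469). Without 48 h replicate 2 the step between 144 h and 48 h was -1.02 and no longer called (adjusted p = 0.0787).

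All 4 ESR1 features fell. At 48 h the other 3 features differed by -2.73, -2.76 and -2.40 from 0 h, at 96 h by -4.23, -3.24 and -3.37, and at 144 h by -3.49, -3.25 and -3.19, and all 9 differences were called. A higher level at 144 h than at 96 h was called for feature 15192166 (0.74 ± 0.17, adjusted p = 0.0171), as for the first feature. It was not called for feature 15183513 (0.18 ± 0.14, adjusted p = 0.391) or feature 15192171 (-0.019 ± 0.12, adjusted p = 0.933). Feature 15183513 read 3.71 and 3.56 at 96 h and 3.83 and 3.81 at 144 h. These levels are near the lower quartile, so that the sizes of its falls are uncertain and its missing call says little. The fall in the first 48 h was thus called for all 4 features and the higher level at 144 h than at 96 h for 2 of them, and whether the features differ from each other was not tested.

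**Figure D2:**
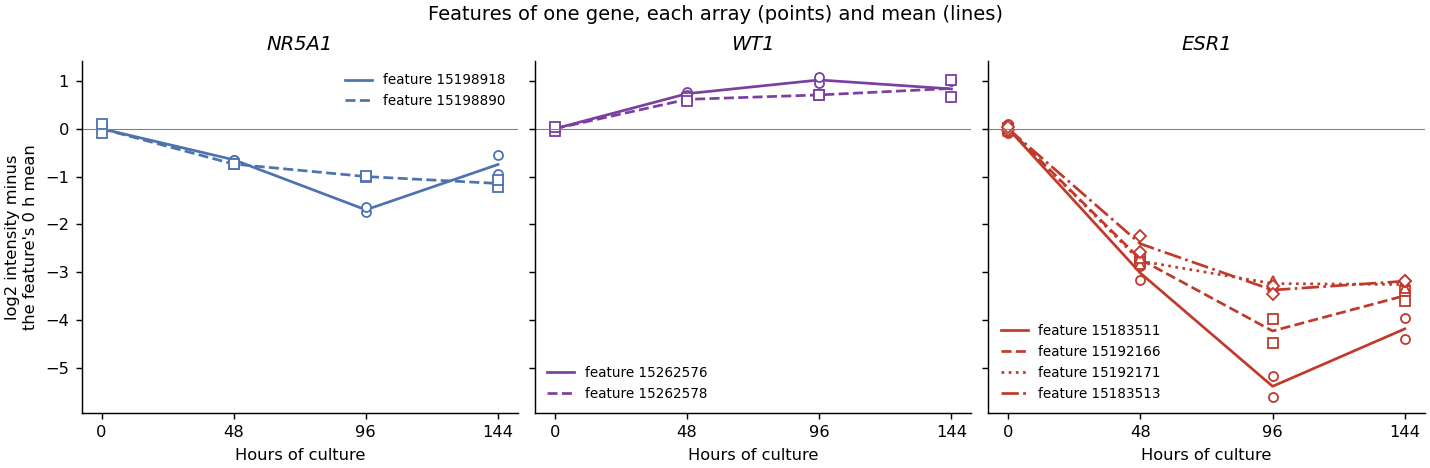
Log2 intensity minus the feature's own 0 h mean (vertical axis) against hours of culture for each feature of NR5A1, WT1 and ESR1, with open symbols for the arrays and lines for the means. The first features of NR5A1 and ESR1 were higher at 144 h than at 96 h, by 0.95 and 1.20, while NR5A1 feature 15198890 and ESR1 feature 15192171 differed by -0.14 and -0.019.

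At 96 h against 48 h, 4 of 5 genes were called lower and none higher, where 17.0% of named genes were lower and 14.3% higher. WT1 was the gene not called. At 144 h against 48 h, NR5A2, GATA6 and ESR1 were called lower and none higher, where 4.89% of named genes were lower and 5.53% higher. At 144 h against 96 h, NR5A1 and ESR1 were called higher by their first features and none lower, where 13.0% of named genes were higher and 10.1% lower. Of the 5 genes NR5A2 had the largest difference between 144 h and 48 h, -2.13 ± 0.27 (adjusted p = 0.0027).

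**Figure D3:**
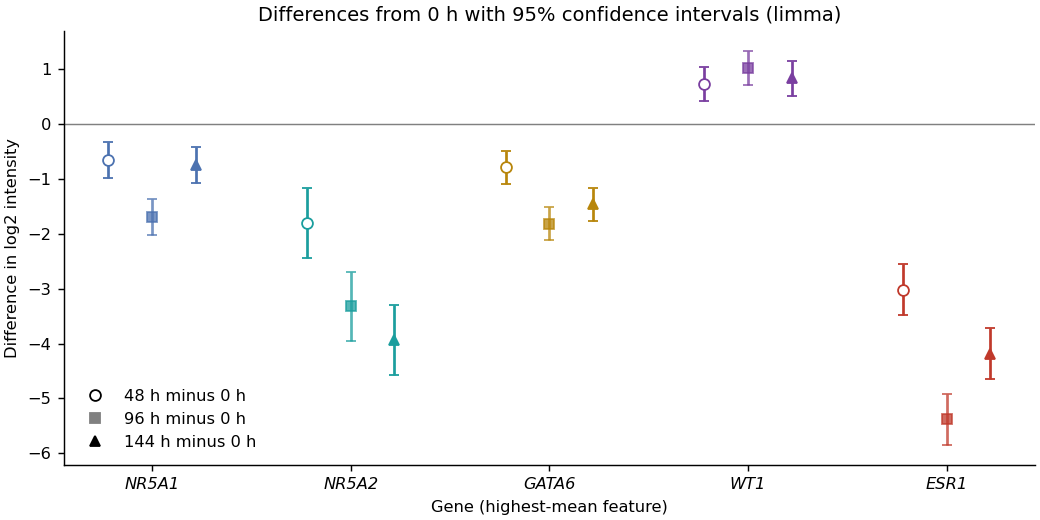
Difference in log2 intensity from 0 h (vertical axis) for the 5 genes at 48 h (open circles), 96 h (squares) and 144 h (triangles), with 95% confidence intervals from limma. The intervals of NR5A1, NR5A2, GATA6 and ESR1 lie below 0 at the 3 times and those of WT1 above 0.

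Of the 10 pairs of genes, 9 differed in course by the exact permutation test on their first features, with adjusted p of 0.0119 or, for NR5A2 and ESR1, 0.0212. NR5A1 and GATA6 were the pair not called (exact p = 0.0571, which the adjustment left as it was), and their changes differed by 0.14 at 48 h, 0.12 at 96 h and 0.72 at 144 h. With NR5A1's second feature that pair was called too (adjusted p = 0.0119). Some pairs with ESR1 depended on its feature: with feature 15192166, ESR1 was no longer called apart from NR5A1 (adjusted p = 0.0544), GATA6 (0.0595) or NR5A2 (0.0857), and with feature 15183513 it was not from GATA6 (0.0952). WT1 differed from each of the other genes with every feature.

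Most measured genes known to be driven by NR5A receptors were lower at 96 h and 144 h than at 0 h. Of 20 listed, 14 had a feature with 1 symbol. At 48 h, 7 were lower and 1 higher, and at 96 h and at 144 h, 10 were lower and 1 higher (backgrounds as above). The call of GJA1 at 144 h lay near the threshold (-0.37 ± 0.11, adjusted p = 0.0359). The 3 genes not called at 96 h or 144 h were CYP17A1, TNFAIP6 and PTGS2. CYP17A1 and TNFAIP6 lay below the lower quartile on all 8 arrays and PTGS2 on 6, so that a fall could not be seen in them. The median difference of the 14 genes at 144 h was -1.30, beside -0.03 for all named genes. HSD17B1, whose enzyme makes estradiol from estrone, fell by 6.63 ± 0.14 at 144 h (adjusted p = 9.61e-08), and FDXR, which supplies electrons to mitochondrial steroid enzymes, fell by 3.40 ± 0.12 (adjusted p = 5.6e-07). LHCGR, which encodes the receptor for luteinizing hormone, differed by -0.15 ± 0.28 at 48 h (adjusted p = 0.738), while NR5A2 and ESR1 were already lower then, and by -4.95 ± 0.28 at 144 h (adjusted p = 5.88e-06). The gene that rose was HSD3B1, whose enzyme makes progesterone from pregnenolone, with a difference of 6.46 ± 0.16 at 144 h from a 0 h level of 3.40, near the lower quartile. STAR, CYP11A1, CYP19A1, INHA and FSHR were not analysed here, because no feature carried their symbol alone. The list and the 4 fallen genes share the same arrays, and the counts do not tie one to the other. The list too was chosen with earlier results of these data known, so its counts are a description.

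Of 10 listed cofactors and repressors of the NR5A receptors, 9 were measured. At 48 h 2 were higher and 4 lower, beside 18.1% of named genes higher and 15.8% lower, but none was higher without either 0 h array or 48 h replicate 1, and 1 without 48 h replicate 2. At 96 h and at 144 h 1 was higher and 4 lower, beside 21.5% of named genes higher and 23.4% lower at 96 h and 19.2% and 17.6% at 144 h, when the median was -0.26. The steroid receptor coactivator genes NCOA1, NCOA2 and NCOA3 fell, with differences of -0.85 ± 0.11, -0.60 ± 0.12 and -0.98 ± 0.15 at 144 h (adjusted p = 0.000639, 0.00527 and 0.00122), and by its other feature NCOA3 differed by -0.33 (adjusted p = 0.0487). PROX1, which encodes a homeobox protein that represses NR5A2 in liver cells, fell by 1.72 ± 0.16 (adjusted p = 7.68e-05). Its mean at 144 h was 3.36, near the lower quartile, so that the size of this fall is uncertain. CTNNB1 (beta-catenin), a coactivator of NR5A receptors, rose by 0.65 ± 0.11 (adjusted p = 0.00256). NR0B1 (DAX1), a repressor of NR5A1, had mean levels of 3.34 at 144 h and 3.14 at 0 h, near the lower quartile, and was not called at any time.

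GATA6's relatives and partners gave few values. Of 7 listed genes, 3 were measured, and GATA4 was not analysed here. ZFPM2 (FOG2), a cofactor of gonadal GATA factors, had levels of 8.11 and 8.14 at 0 h, 7.87 and 7.93 at 48 h, 6.64 and 6.61 at 96 h, and 7.62 and 7.25 at 144 h. It was not called at 48 h (-0.23 ± 0.14), fell by 1.51 ± 0.14 at 96 h (adjusted p = 5.49e-05), and was higher at 144 h than at 96 h by 0.81 ± 0.14 (adjusted p = 0.00472). GATA2 and GATA5 were not called at 144 h (-0.05 and 0.25), although 1 gene of the list was called higher without 144 h replicate 1.

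Of 18 listed partners and targets of WT1, 10 were measured. At 48 h 2 rose and 1 fell, beside 18.1% of named genes higher and 15.8% lower. At 96 h 2 rose and 3 fell, beside 21.5% higher and 23.4% lower. At 144 h 2 rose and 1 fell, near the background of 19.2% of named genes higher and 17.6% lower, and the median was 0.025. Without 0 h replicate 1, 1 rose and 1 fell, and without 144 h replicate 2, 2 rose and 3 fell. SPRY1, a growth factor signalling inhibitor and a WT1 target in mouse kidney, rose by 1.19 ± 0.18 at 48 h (adjusted p = 0.00135) and 0.79 ± 0.18 at 144 h (adjusted p = 0.00912), where it was not called without 0 h replicate 1 (adjusted p = 0.054) and was 0.52 without 144 h replicate 2. BCL2, which encodes an inhibitor of apoptosis, rose by 0.95 ± 0.16 at 144 h (adjusted p = 0.00281). EGR1, an immediate early factor whose binding sites resemble those of WT1, fell by 1.91 ± 0.32 at 144 h (adjusted p = 0.00236). PODXL, which encodes a surface protein of kidney podocytes and is a WT1 target there, rose by 0.91 ± 0.24 at 48 h (adjusted p = 0.0216), a call lost with any 0 h or 48 h array left out (adjusted p from 0.0501 to 0.128). It was not called at 144 h (0.53 ± 0.24, adjusted p = 0.131).

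ESR2, the second estrogen receptor, had levels of 4.82 and 4.77 at 0 h, 4.00 and 4.50 at 48 h, 4.49 and 4.84 at 96 h, and 4.72 and 4.46 at 144 h. It was not called at any time, with -0.55 ± 0.20 at 48 h (adjusted p = 0.0709) and -0.21 ± 0.20 at 144 h (adjusted p = 0.493), and its difference from ESR1 was not tested. Of the 8 measured other steroid receptors and their relatives, 1 was higher and 3 lower at 144 h, beside 19.2% of named genes higher and 17.6% lower. Without 0 h replicate 1 none was higher and 2 were lower, and without 144 h replicate 2, 2 were higher and 3 lower. NR3C2, the mineralocorticoid receptor gene, fell by 2.32 ± 0.18 (adjusted p = 3.16e-05). PGR, the progesterone receptor gene, fell by 1.30 ± 0.16 (adjusted p = 0.000482), while the glucocorticoid receptor gene NR3C1 rose by 0.58 ± 0.13 (adjusted p = 0.00832), a call lost without 0 h replicate 1 (adjusted p = 0.0604). PGRMC1, which encodes a membrane protein of progesterone signalling, rose by 0.85 ± 0.25 at 48 h (adjusted p = 0.0332) and fell by 0.85 ± 0.25 at 144 h (adjusted p = 0.0307). The rise at 48 h was not called without 0 h replicate 2 (0.53, adjusted p = 0.199), 48 h replicate 2 or either 96 h array, and the fall at 144 h was not called without 0 h replicate 1 (-0.54, adjusted p = 0.185), 144 h replicate 1 or either 96 h array.

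Of 13 listed genes that estrogen induces in human breast cancer cells, 9 were measured. At 48 h 3 were called higher and 2 lower, beside 18.1% of named genes higher and 15.8% lower, and without either 144 h array 5 were higher. The call of 2 lower became 1 without 0 h replicate 2 or 48 h replicate 1. At 96 h 3 were higher and 3 lower, beside 21.5% higher and 23.4% lower. At 144 h 7 were higher and 1 lower, beside 19.2% of named genes higher and 17.6% lower, and the median was 1.01, but without 0 h replicate 1 only 4 were higher. The gene that fell was PGR, a classical estrogen receptor target. KRT19, a keratin gene that is also among the surface epithelium markers, rose by 2.62 ± 0.52 (adjusted p = 0.00527), or by 1.66 without 144 h replicate 2, since the 144 h arrays read 6.46 and 8.39. Also higher were STC2 by 1.25 ± 0.12 (adjusted p = 0.000102) and the chemokine gene CXCL12 by 1.21 ± 0.13 (adjusted p = 0.000177), the last from a level of 3.16 near the lower quartile. Of 8 measured coregulators of the estrogen receptor, none was higher and 3 lower at 48 h and again at 144 h, beside 19.2% of named genes higher and 17.6% lower at 144 h, where the 3 were the NCOA genes above. At 96 h 2 were higher and 3 lower, beside 21.5% and 23.4% of named genes, and 1 was higher with any 0 h or 96 h array left out. At 96 h the corepressor gene NCOR1 rose by 1.48 ± 0.23 (adjusted p = 0.00114), but its other feature differed by 0.16 then and was not called (adjusted p = 0.447).

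Of 25 other gonadal transcription factors listed, 12 were measured. At 48 h 4 were higher and 3 lower, beside 18.1% of named genes higher and 15.8% lower. Among the 4, the calls of NR2F2 (0.63 ± 0.18, adjusted p = 0.0272) and RUNX1 (0.49 ± 0.15, adjusted p = 0.0382) lay nearest the threshold. At 96 h 3 were higher and 4 lower, beside 21.5% higher and 23.4% lower. At 144 h 2 were higher, 2 lower and 8 not called, beside 19.2% of named genes higher and 17.6% lower, so that the 144 h counts lie near the background. Without 144 h replicate 2, 3 were higher and 4 lower. EMX2, a homeobox gene of the early gonad, fell by 1.97 ± 0.23 (adjusted p = 0.000311) and FOXO1, a forkhead factor of growing follicles, fell by 1.24 ± 0.16 (adjusted p = 0.000475), with -2.45 by its other feature. SOX9, a factor needed for Sertoli cells to form in the mouse testis, had levels of 5.30 and 5.01 at 0 h, 8.07 and 8.28 at 48 h, 7.99 and 8.09 at 96 h, and 7.23 and 7.41 at 144 h. It rose by 3.02 ± 0.14 at 48 h (adjusted p = 4.35e-06) and 2.16 ± 0.14 at 144 h (adjusted p = 1.37e-05), and IRX3, a homeobox gene of the mouse ovary, rose by 2.52 ± 0.14 at 144 h (adjusted p = 5.05e-06). FOXL2, the factor that holds granulosa identity in mice, was not analysed here, and DMRT1, another testis factor, was not called at 144 h (-0.44, adjusted p = 0.0922), although its other feature was lower (-0.35, adjusted p = 0.0474).

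**Figure D4:**
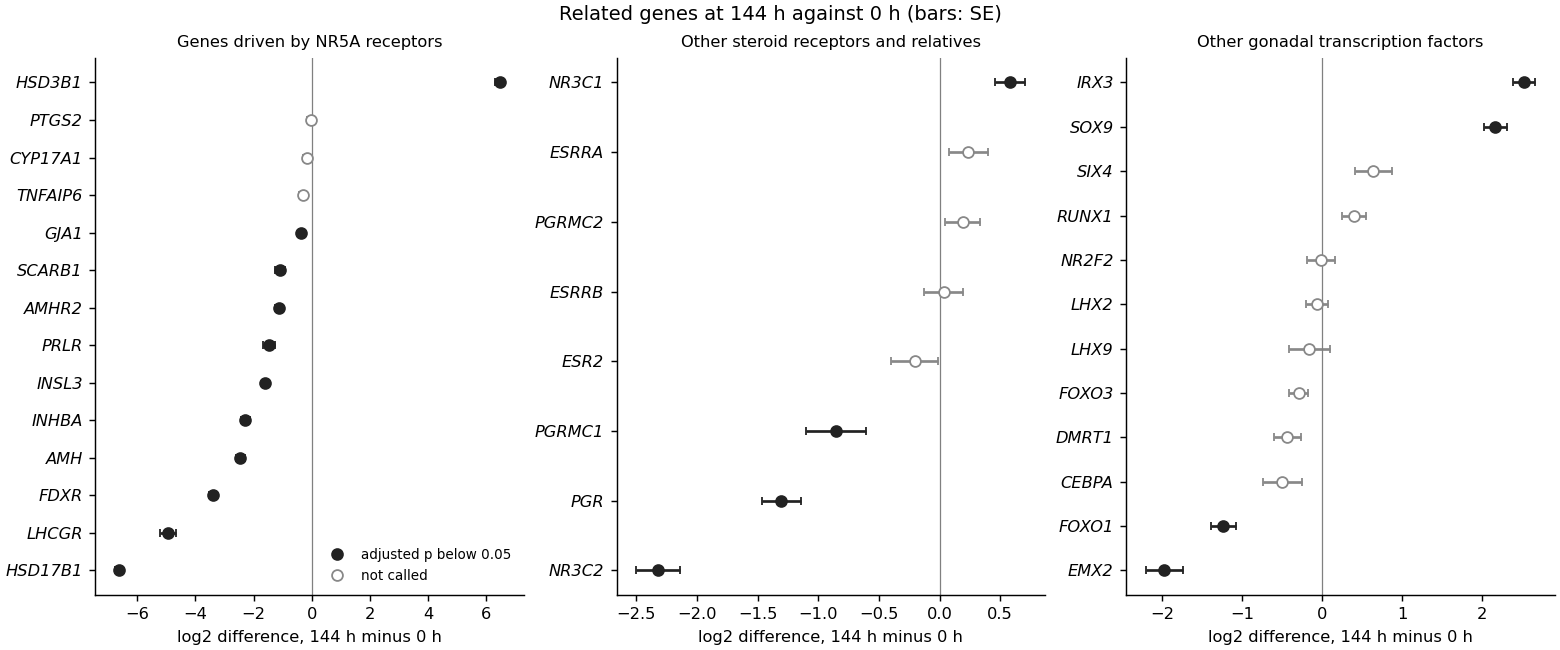
Log2 difference at 144 h against 0 h (horizontal axis) for each measured gene of 3 lists, with SE bars, filled where the adjusted p was below 0.05 and open where not. Of the 14 genes driven by NR5A receptors 10 were lower and 1, HSD3B1, higher, ESR2 lies near 0, and SOX9 and IRX3 lie to the right.

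The genes most like each member were those with the smallest root mean square difference over the 8 arrays, after each gene's own 0 h mean was subtracted, among the named genes called by the F test. Nearest to NR5A1 were PIGU (0.0993 on the log2 scale), ABHD16A, NR2C2 and ACADS (0.135). Nearest to GATA6 were PHF8 (0.137), ERMP1, ADAM28 and FOXO1 (0.159), and nearest to WT1 were PPRC1 (0.0993), PRELID1, TMED3 and S100A11 (0.109). NR5A2 and ESR1 had no neighbour as close, but the measure is not scaled and grows with the size of a gene's change and its scatter. Nearest to NR5A2 were NPR3 (0.348), PTGES, GPT2 and NPY2R (0.485), and nearest to ESR1 were CCNE2 (0.408), ITM2A, NUP210 and GLCCI1 (0.621). CCNE2, which encodes a cyclin of entry into S phase, differed by -3.58, -5.10 and -4.15 at 48 h, 96 h and 144 h. Likeness over 8 arrays of 4 times is a description, and many genes share so simple a course.

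Of the cell type markers, the granulosa, stromal and oocyte lists changed as a whole by the features used, while the other lists changed only in part. In bulk RNA fewer cells of a type and less RNA per cell cannot be told apart. All 4 measured of 8 granulosa markers (HSD17B1, IHH, FST and AMH) were lower at each later time than at 0 h. HSD17B1 and AMH, and the theca markers CYP17A1 and INSL3 below, are also among the genes driven by NR5A receptors, so the lists are not independent. The summed linear intensity of the 4 granulosa markers was 4337 to 4761 at 0 h, 907.2 to 1003 at 48 h, 89.85 to 96.68 at 96 h and 133.0 to 197.5 at 144 h. This is the order of the means of NR5A1, GATA6 and ESR1 by their first features, but a linear sum follows its brightest genes. At 144 h against 96 h only FST was called higher (1.11 ± 0.23, adjusted p = 0.0119). HSD17B1, AMH and IHH were not called then (0.20, 0.26 and -0.17). AMH lay below the lower quartile on 4 arrays, both 96 h arrays among them. IHH means were 3.82 at 96 h and 3.65 at 144 h, not far above the lower quartile. At such levels the missing calls of AMH and IHH say little about a change between these times. By NR5A1 feature 15198890 and ESR1 feature 15192171 the lowest mean was at 144 h, and for GATA6 144 h and 96 h were not called different. The 4 measured of 5 stromal markers (DCN, LUM, COL1A1 and ACTA2), which cultured granulosa cells can also express, were all higher, with sums of 10250 to 12290 at 144 h and 373.6 to 378.8 at 0 h. Of 6 surface epithelium markers, a cell type in which WT1 is also known, 4 were measured, with sums of 75.28 to 99.00 at 0 h, 524.3 to 588.2 at 48 h, 199.9 to 202.1 at 96 h and 220.1 to 590.6 at 144 h. KRT8 and KRT19 were called higher at 144 h, while KRT18 and UPK1B were not. The sum of the 4 measured of 7 leukocyte markers was 130.7 to 152.8 at 144 h and 89.79 to 99.04 at 0 h. Its members went both ways at 144 h, where LYZ (1.20, adjusted p = 0.000942) and CD14 (0.53) were called higher, PTPRC, the gene common to leukocytes, was called lower (-0.85, adjusted p = 0.0099), and CD3E was not called. CD14 and PTPRC were not called without 0 h replicate 1, nor was CD14 without 0 h replicate 2, either 96 h array or 144 h replicate 2. The sum of the 5 measured of 7 endothelial markers was 84.17 to 98.67 at 144 h and 69.83 to 72.71 at 0 h. At 144 h PECAM1 was called higher (1.14), KDR lower (-0.66), and VWF, TEK and CLDN5 were not called. By its other feature KDR differed by 0.13 and was not called (adjusted p = 0.545). The KDR feature used lay below the lower quartile on 5 arrays and TEK on all 8, so that their values are uncertain. The sum of the 5 measured of 7 oocyte markers was 81.44 to 89.09 at 144 h and 278.1 to 327.4 at 0 h. Among 3 measured of 6 theca markers, CYP17A1, the androgen-making enzyme gene that defines theca cells, lay below the lower quartile on all 8 arrays. INSL3 was called lower at 144 h (-1.60 ± 0.12, adjusted p = 2.32e-05) from a 0 h level of 5.76, and GLI1 was not called (0.13, adjusted p = 0.6). The sum of the 3 was 34.97 to 42.58 at 144 h and 73.78 to 75.37 at 0 h. The part of other cell types in the changes of the 5 genes was not tested.

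**Figure D5:**
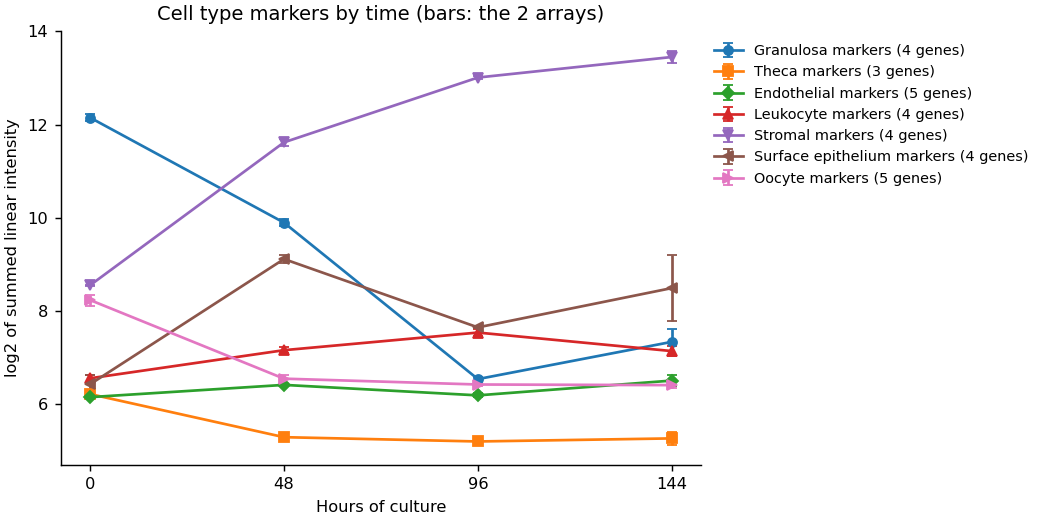
Log2 of the summed linear intensity of each marker list (vertical axis) against hours of culture, with bars spanning the 2 arrays of a time. The granulosa sum falls to its lowest at 96 h, the stromal sum is highest at 144 h, and the surface epithelium sum is highest at 48 h and wide at 144 h.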

How the data were processed

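The values used were log2 intensities of 27558 features on 8 arrays, which the authors deposited in 1 table and made with RMA, as the submitters' processing notes name it. RMA subtracts background, gives all arrays 1 common distribution and summarises the probes, so a shift common to most genes is not seen. The sources used here do not state the software or settings. No further normalization or filter was applied. Groups came from the time and number in the sample titles. No label gives a batch, and one that ran with time cannot be told apart from it.

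Genes were named from GEO's platform annotation, and 6 symbols were brought up to date by gene identifier. In the table used 11735 features had 1 symbol, 612 several and 15211 none. No sequence is printed.

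limma 3.58.1 (R 4.3.3) fitted 1 mean per time to the 8 arrays, with 4 residual and 3.98 prior degrees of freedom. Two-sided moderated tests were adjusted by Benjamini-Hochberg over the 27558 features within a comparison and called below 0.05. Precision is limited by the 2 arrays per time. The steps were tested on simulated data for 48 h against 0 h, where 59.2% of 2-fold and 92.6% of 4-fold changes were recovered. A 2-fold change can thus be missed. The numbers did not pair the arrays: correlations of deviations from the time means between same-numbered arrays ran from -0.0382 to 0.188. The 5 genes and the lists were chosen with earlier results of these data known. Named genes are the 5, up to 4 genes per list with the largest difference at 144 h, ESR2, NR0B1, ZFPM2 and HSD17B1, and the 4 nearest profiles; others were named after their values were seen. Alternatives were 3 normalizations, a filter on dim features (18019 kept, each brighter than percentile 40 of 2 or more arrays), eBayes with trend and robust, only the 4 arrays compared, a replicate block, 1 feature per gene, a 0.01 threshold and each array left out. For the listed genes, leaving out each array was added after seeing the data.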

Additional observations from a re-analysis of the deposited data

How the results depend on the processing

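Directions of the 5 genes against 0 h were the same under all alternatives run and with every feature, and the 5 F test calls held. Fitted to only the 4 arrays compared, GATA6 at 144 h against 48 h (-0.68) was not called (adjusted p = 0.0948), and 825 features were called in that comparison in place of 2381. At an adjusted p below 0.01, GATA6 (-0.68) and ESR1 (-1.17) at 144 h against 48 h were not called, and the features called were 5147 at 48 h against 0 h in place of 8260, 4688 at 96 h against 48 h in place of 8089, 1120 at 144 h against 48 h, and 3033 at 144 h against 96 h in place of 6115. With each array left out in turn, NR5A1 at 48 h against 0 h ran from -0.70 to -0.60, GATA6 at 144 h against 48 h from -0.80 to -0.55 and against 96 h from 0.22 to 0.48, ESR1 at 144 h against 48 h from -1.39 to -0.94, and NR5A2 at 144 h against 96 h from -1.12 to -0.11. The features called then ran from 4198 to 10294 at 96 h against 48 h, from 1070 to 3879 at 144 h against 48 h, and from 2437 to 7320 at 144 h against 96 h; the highest 144 h against 48 h count came without 144 h replicate 1. An array left out leaves 1 sample at its time, which is assumed to vary like the others. By other features, NR5A1 differed by -0.26 at 96 h against 48 h (not called) and by -0.14 at 144 h against 96 h, where the sign turned, and ESR1 at 144 h against 96 h by -0.019, where the sign turned, and by 0.18. Pair tests of course changed for NR5A1 and GATA6 after cyclic loess (adjusted p = 0.0212) and with NR5A1's second feature (0.0119), and for ESR1 with feature 15192166 against NR5A1 (0.0544), NR5A2 (0.0857) and GATA6 (0.0595) and with feature 15183513 against GATA6 (0.0952). The cause of these changes was not tested. The replicate block changed no call of the 5 genes: 8233 features were called at 48 h against 0 h, and NR5A1's F test had an adjusted p of 0.000384. Other scalings moved the median of all features by at most 0.0917 in size and a difference of the 5 genes by at most 0.243.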
